A study of Homo sapiens with 18 samples.

Results

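C32 melanoma cells carrying short hairpin RNAs (shRNAs) against FHL2 were compared with A375M2 melanoma cells carrying FHL2 shRNAs, to describe which differences between the lines are found when FHL2 is low in both. The groups were taken from the array titles and hold 3 arrays each, 6 of the 18 arrays in the series, and all 10940 genes that could be tested were compared. C32 is a human melanoma line, and A375M2 is a metastatic derivative of the melanoma line A375; the labels give A375M2 as the source and A375 as the cell line of those arrays. The treatment description, which is the same for every array, gives a lentiviral pool of 3 constructs against FHL2, puromycin and sorting of the brightest GFP-positive cells, so each shRNA group is a selected population and not a clone. The A375M2 cells were kept under selection for 15 days and were harvested at 80% confluence in 3 separate experiments. The culture and the separate experiments are described for A375M2 alone, so for C32 p-values may measure only the spread between arrays. The line difference with a GFP control vector, C32 GFP against A375M2 GFP, was read from other arrays and is given for comparison; which GFP vector of the study those arrays carry is not stated.

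FHL2 is a scaffold protein built of LIM domains that binds integrins at adhesion sites and also enters the nucleus, where it acts as a co-regulator of transcription. In pigment cells, the factor MITF, together with SOX10 and PAX3, drives the genes of melanin synthesis and of the melanosome, the organelle in which melanin is made. Melanoma lines are commonly ordered between a pigmented, MITF-high state and a state with low MITF, high AXL and strong expression of cytokines, matrix genes and proteases.

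The values are log2 signals on 3′ expression arrays, normalized by the authors. A gene was called when its limma p-value, adjusted by the Benjamini-Hochberg method over all 10940 genes, was under 0.05, and a second count took called genes that differed at least 2-fold. A difference is C32 minus A375M2 on the log2 scale, so a negative value means lower in C32, and an SE is that of the difference. The lowest values of the table lie near log2 2, and a gene under log2 4 in one line was also compared with all values under 4 set to 4, here called the floored difference. In these cultures, fewer cells expressing a gene and less RNA per cell cannot be told apart.

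FHL2 itself was low in both groups. Its log2 signal was 6.10, 6.10 and 5.30 in the C32 shFHL2 arrays and 7.01, 7.26 and 7.25 in the A375M2 shFHL2 arrays. The groups did not overlap, and the level was lower in C32 by 1.34 on the log2 scale: -1.34 (SE 0.144, limma adjusted p = 7.63e-08), or 2.53-fold. With the GFP vector the lines stood at 11.08 and 11.21, a difference of -0.13 that did not pass the test (limma adjusted p = 0.45). Residual FHL2 therefore differed between the groups, and its part in the results was not tested. NFYA, a subunit of the CCAAT-box factor NF-Y, was higher in C32 shFHL2 at 9.45 against 8.86, by 0.59 (SE 0.0941, limma adjusted p = 1.1e-05), and all 4 of its probe sets were higher. PMEL, the fibril protein of melanosomes, was near the lowest values in both groups, at 4.08 and 3.35, and its difference of 0.73 was 0.08 when floored and then not called.

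Replicate arrays of a group correlated at 0.998. At 42 probe sets each group held one exact value in its 3 arrays, at levels up to 5.73, and at 37 of these the value was the same in both groups. Mean signal of the poly-A spike-ins was 5.96 ± 0.04 in C32 shFHL2 and 6.57 ± 0.14 in A375M2 shFHL2 (SD, n = 3), and that of 18S RNA was 13.94 and 14.18. C32 shFHL2 had 10.3% of genes under log2 4 and A375M2 shFHL2 had 5.94%. The arms of the 2 lines stood at unequal distances from their controls: 936 genes differed at least 2-fold between C32 shFHL2 and C32 GFP (r = 0.977 over genes), and 3431 between A375M2 shFHL2 and A375M2 GFP (r = 0.875). A375M2 shFHL2 lay closer to the A375M2 arrays with shRNAs against NFYA, with 1137 such genes (r = 0.969), than to A375M2 GFP. The GFP groups stood apart in these checks, C32 GFP most in the spike-ins (poly-A 9.37, hybridisation 12.79 against 11.87 in C32 shFHL2, 18S 13.28) and A375M2 GFP in 18S (12.52, poly-A 7.15). The actin 3′ minus 5′ signal, a sign of RNA quality, was 0.87 in C32 shFHL2, 1.07 in A375M2 shFHL2, 1.08 in C32 GFP and 0.61 in A375M2 GFP, and the part of such array differences in the changes between vectors was not tested. The values of C32 GFP replicate 3 were almost exactly the average of its fellow arrays (SD of the deviation 0.00746, against 0.108 to 0.171 for other arrays), so it was left out and n is 2 for that group.

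Of 10940 genes, 9865 (90.2%) were called between the shRNA groups, 4520 higher (41.3%) and 5345 lower (48.9%) in C32. At least 2-fold differences were found for 5152 genes (47.1%), of which 2299 (21%) were higher and 2853 (26.1%) lower, and at least 8-fold differences for 1326 (12.1%), 506 higher and 820 lower. The 2-fold counts of every gene list below are to be read beside the 21% and 26.1%. The arrays of the 2 groups did not overlap for 10054 genes, 91.9% of those tested. The median difference over all genes was -0.13 and moved to -0.04 when arrays were centred on their medians and to 0.03 after quantile normalization. With the GFP vector, 9394 genes were called (85.9%; 38.7% higher and 47.2% lower in C32), and 4715 differed at least 2-fold (43.1%), 2007 higher (18.3%) and 2708 lower (24.8%) in C32. Which side was larger depended on the scaling: with GFP it was 2465 higher and 2246 lower with centred arrays and 2349 and 2287 after quantile normalization, and with the shRNAs 2671 and 2429 after quantile normalization.

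Of the 5152 genes that differed at least 2-fold with the shRNAs, 3018 (58.6%) also did so in the same direction with GFP, 1314 higher and 1704 lower in C32. A further 1985 (38.5%) were under 2-fold with GFP, and 149 (2.89%) differed at least 2-fold in the opposite direction. Whether the line difference itself changed between the vectors was tested with an interaction term, called for 8772 genes (80.2%; 42.1% upward and 38.1% downward) and at 2-fold or more for 3715 (34%), 1887 upward (17.2%) and 1828 downward (16.7%), or 1629 and 2076 with centred arrays. Among the 3018 genes with the same direction, 985 had a change of at least 2-fold, the lines lying further apart with the shRNAs in 658 and closer in 327, and for 788 the change was not called. Of the 3715 genes whose line difference changed at least 2-fold, the shRNA and GFP arms were further apart in A375M2 for 3047 (82%) and in C32 for 668. The line difference with the shRNAs and that with GFP share no arrays, and over the 10940 genes they correlated at r = 0.724 (Spearman rho 0.686).

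**Figure D1:**
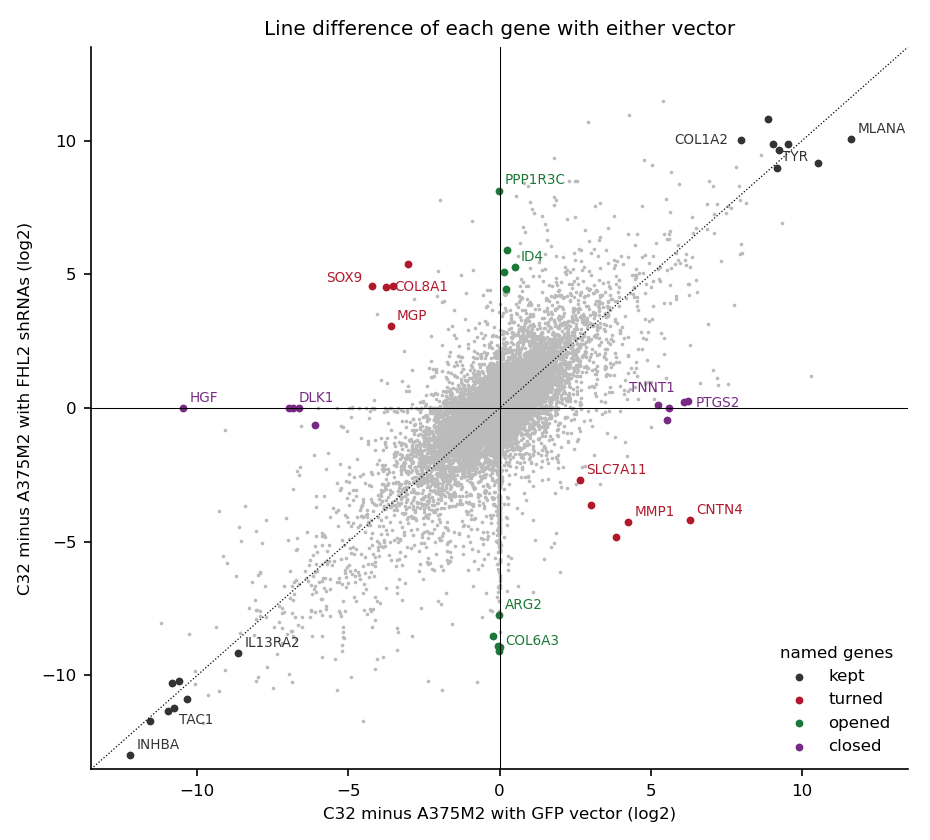
Each point is a gene, with the difference C32 minus A375M2 (log2) with the GFP vector on the horizontal axis and with the FHL2 shRNAs on the vertical axis; the dotted line marks equal differences. Coloured points are the named genes whose line difference was kept (large in both), turned (opposite signs), opened (near 0 with GFP) or closed (near 0 with the shRNAs), from INHBA at -12.98 and -12.21 on the diagonal to CNTN4 at -4.18 with the shRNAs and 6.29 with GFP.

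Most melanocyte regulators were higher in FHL2-depleted C32 than in FHL2-depleted A375M2, MITF among them, while SOX10 was slightly lower. Of 13 measured regulators, 8 were at least 2-fold higher and 2 at least 2-fold lower in C32, with a median of 2.21 (over all genes -0.13). MITF read 14.24, 14.09 and 14.27 in C32 shFHL2 and 10.06, 10.01 and 10.09 in A375M2 shFHL2, a difference of 4.15 (SE 0.0527, limma adjusted p = 2.5e-21), or 17.7-fold. No array of A375M2 shFHL2 came near those of C32, whereas with GFP the 2 lines stood at 14.96 and 14.24, a difference of 0.72. The MITF difference changed by 3.43 between the vectors. A375M2 with shRNAs against NFYA was also low in MITF, at 8.95, so the low level was not particular to the FHL2 shRNAs.

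SOX10, the neural crest factor upstream of MITF, read 11.80, 11.75 and 11.83 in C32 and 12.26, 12.38 and 12.37 in A375M2. It was thus high in both lines and slightly lower in C32, by -0.54 (SE 0.0399, limma adjusted p = 3.68e-10); its second probe set, at 3.81 and 4.01, differed by -0.20 and was not called. The related factor SOX9 read 7.11, 6.90 and 6.92 against 2.36, 2.17 and 2.77, higher in C32 by 4.55 (floored 2.98) with the shRNAs and lower by -4.23 with GFP. In A375M2 with shRNAs against NFYA, SOX9 was likewise near the lowest values, at 2.16. PAX3, which acts with SOX10 on the MITF promoter, differed by 2.21 with the shRNAs and by 2.10 with GFP, and for it the change was not called. TFAP2A (3.75), which cooperates with MITF at pigment genes, the WNT effector LEF1 (2.93), the endothelin receptor EDNRB (2.35), TFEC (5.41, floored 3.27), a relative of MITF, and ZEB2 (1.69) were also higher in C32. SOX5 (-3.82), an antagonist of SOX10 in pigment cells, and ZEB1 (-2.19) were lower in C32. The neuregulin receptor ERBB3 (0.17) and the melanocortin receptor MC1R (-0.97) differed by less than 2-fold.

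Among melanosome and pigment genes, 14 were measured, and 9 were at least 2-fold higher and 3 at least 2-fold lower in C32, with a median of 2.19. With GFP 8 were at least 2-fold higher and 3 lower (median 1.73). The change between the vectors was called at 2-fold or more upward for 5 of the 14 and downward for 7. The promoters of TYR, which has the largest floored difference of these genes, of OCA2, the one lowest in C32, and of GPNMB are printed because they hold CATGTG, one form of the E-box that MITF binds, set in capitals and written CACATG where it lies on the other strand. They are RefSeq windows of 300 bases, from 250 before to 50 after the annotated start, on GRCh38.p14, 5′ to 3′ along the gene.

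TYR, chr11:89177625-89177924, plus strand: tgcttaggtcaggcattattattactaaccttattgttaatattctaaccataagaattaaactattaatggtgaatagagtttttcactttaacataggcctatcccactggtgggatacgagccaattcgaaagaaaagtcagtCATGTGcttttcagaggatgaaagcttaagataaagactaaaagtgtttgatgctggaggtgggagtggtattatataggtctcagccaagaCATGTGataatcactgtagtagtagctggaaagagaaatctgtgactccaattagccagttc

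OCA2, chr15:28099266-28099565, minus strand: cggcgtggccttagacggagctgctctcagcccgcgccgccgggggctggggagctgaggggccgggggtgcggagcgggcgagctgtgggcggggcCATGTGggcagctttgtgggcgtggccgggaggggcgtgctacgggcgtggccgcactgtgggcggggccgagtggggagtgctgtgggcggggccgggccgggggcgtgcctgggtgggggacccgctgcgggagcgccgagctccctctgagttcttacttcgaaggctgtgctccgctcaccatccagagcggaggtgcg

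GPNMB, chr7:23246525-23246824, plus strand: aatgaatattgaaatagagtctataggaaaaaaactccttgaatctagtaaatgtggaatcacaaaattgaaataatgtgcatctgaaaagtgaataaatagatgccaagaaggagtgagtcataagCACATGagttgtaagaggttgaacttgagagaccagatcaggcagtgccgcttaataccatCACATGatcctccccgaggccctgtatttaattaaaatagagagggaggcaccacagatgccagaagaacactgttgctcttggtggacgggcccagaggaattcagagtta

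CATGTG was searched on both strands and was present in 7 of the 15 pigment gene windows in the table (46.7%), against 11.1% of all 35116 windows; CACGTG was present in 1 of 15 (6.67%), against 7.26% of all. A match is no evidence of binding: TYR, much higher in C32, and OCA2, lower in C32, both hold CATGTG, and the MLANA window holds neither motif.

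TYR, tyrosinase, the rate-limiting enzyme of melanin synthesis, read 12.50, 12.60 and 12.51 in C32 shFHL2 and 2.93, 2.61 and 2.48 in A375M2 shFHL2. All A375M2 arrays lay near the lowest values, and the difference was 9.86 (floored 8.54; SE 0.135, limma adjusted p = 6.81e-21). It was 9.05 with GFP, and its change of 0.81 turned to -0.51 when floored and to -0.30 with the mean of its probe sets. MLANA, a melanosomal antigen, read 12.18, 12.24 and 12.31 against 2.18 in each A375M2 array, a difference of 10.07 (floored 8.25; limma adjusted p = 5.24e-24) beside 11.62 with GFP.

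GPNMB, a lysosomal and melanosomal glycoprotein that MITF activates, read 15.02, 14.93 and 15.01 in C32 against 10.28, 10.34 and 10.24 in A375M2. Both lines expressed it, and the difference of 4.70 (SE 0.041, limma adjusted p = 1.5e-23) was 0.77 with GFP. GPNMB was at 9.04 in A375M2 with shRNAs against NFYA. CAPN3, a calpain expressed in melanocytic cells, differed by 8.48 with the shRNAs and by 2.56 with GFP. RAB27A (2.80) and MYO5A (2.67), which carry melanosomes along actin, and MLPH (1.70), which links them, were also higher in C32, as were the lipid carrier APOE (5.03) and the melanin enzyme TYRP1 (1.43).

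OCA2, the melanosomal chloride channel component mutated in oculocutaneous albinism, ran the other way, at 3.67, 3.94 and 3.93 in C32 and 9.08, 8.52 and 8.97 in A375M2. Its difference was -5.01 (floored -4.86; SE 0.185, limma adjusted p = 1.18e-14) and was -2.15 with GFP. OCA2 was at 8.71 in A375M2 with shRNAs against NFYA. RAB38, which carries pigment enzymes to the melanosome, was lower in C32 by -4.66, and BCAN by -2.86. GPR143, a melanosomal receptor, was at 2.18 in every array of both shRNA groups, a difference of 0.00, and -6.0 with GFP.

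**Figure D2:**
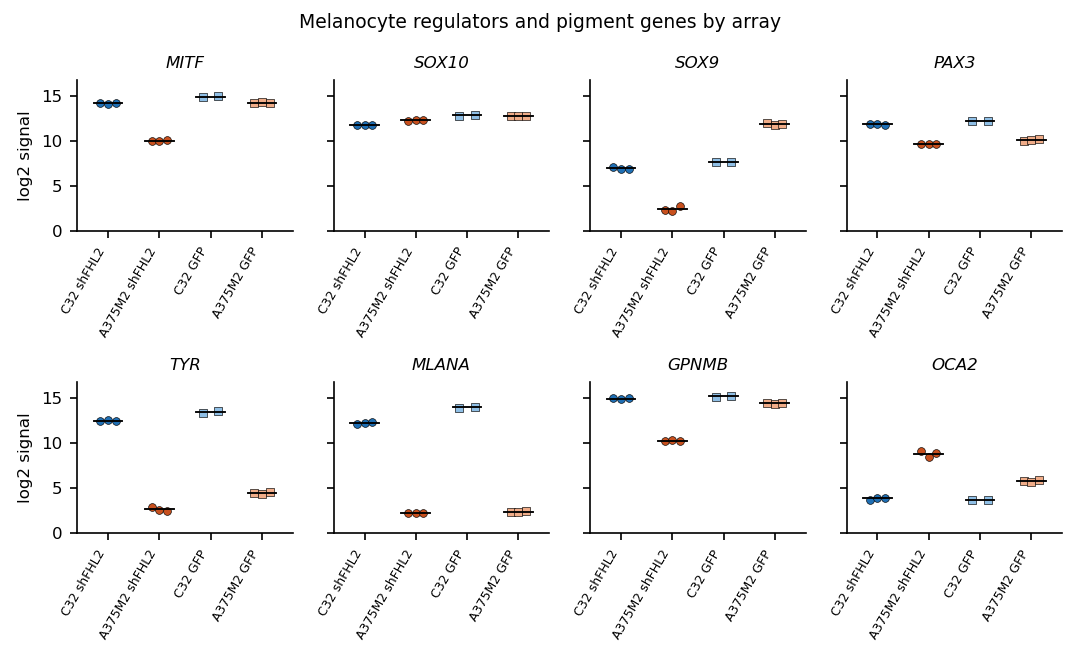
Log2 signal of 4 regulators and 4 pigment genes in each array of the 4 groups (points) with the group mean (bar); C32 GFP has 2 arrays. MITF and GPNMB are lower in A375M2 shFHL2 than in the other 3 groups shown, TYR and MLANA separate the lines with either vector, and OCA2 is highest in A375M2 shFHL2. A375M2 with shRNAs against NFYA is not shown.

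The glial and neural crest list had 5 of 10 measured members at least 2-fold higher and 2 lower in C32. GPM6B, a myelin-related membrane protein, read 14.16, 14.14 and 14.13 against 3.69, 3.36 and 3.32, the largest floored difference of all genes higher in C32 (10.14; unfloored 10.68, limma adjusted p = 1.5e-23). With GFP its difference was 2.91. GPM6B was also low in A375M2 with shRNAs against NFYA, at 3.43. The stem cell factor SOX2 (2.61, and 2.63 with GFP) and the adhesion molecule L1CAM (3.34) were higher in C32, and the growth cone protein GAP43 (-6.92) and the cadherin CDH19 (-1.89) were lower.

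Cytokine and chemokine genes were lower in FHL2-depleted C32 than in A375M2. Of 17 measured inflammatory genes, 12 were at least 2-fold lower and 1 higher, with a median of -3.06, against -1.79 with GFP. IL24 read 3.27, 3.93 and 3.32 in C32 shFHL2 and 15.16, 15.21 and 15.24 in A375M2 shFHL2, the largest floored difference in this direction (-11.20; unfloored -11.69, SE 0.134, limma adjusted p = 5.91e-22). With GFP it differed by -4.51. IL1A, an upstream inflammatory cytokine, read 2.26, 2.20 and 2.26 against 12.36, 12.58 and 12.46, a difference of -10.22 (floored -8.47), and CXCL8, a neutrophil-attracting chemokine, read 4.75, 4.61 and 4.58 against 13.87, 14.08 and 14.17, a difference of -9.40.

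All 3 A375M2 shFHL2 arrays were near the top of the scale for IL24 and CXCL8, and all 3 C32 arrays near the bottom. CXCL1 (-7.52), CXCL3 (-6.52) and CXCL2 (-5.91) were lower in C32, where these 3 were under log2 4, so the sizes depend on the floor. They are chemokines of the CXCL8 family whose similar sequences leave their separate values uncertain. IL11 (-7.78, beside 0.00 with GFP) and IL1B (-4.03) were lower in C32 too. The adhesion molecule ICAM1 was higher (1.65). PTGS2, the inducible prostaglandin synthase, read 11.06, 11.02 and 10.92 against 10.86, 10.77 and 10.73, a difference of 0.21 (limma adjusted p = 0.039), where it was 6.08 with GFP; the call was lost without A375M2 replicate 2 or 3 or C32 replicate 1 or 2 (limma adjusted p 0.0842 to 0.115). Of 17 interferon-stimulated genes, 5 were at least 2-fold higher and 4 lower (5 and 2 after quantile normalization), not far from the 21% and 26.1% over all genes. With GFP 9 were higher and 2 lower (median 1.15, against -0.21 with the shRNAs). The list included IFITM1 (4.07), IFIT2 (2.37), MX1 (-2.71) and MX2 (-6.28), each encoding an antiviral protein. Of 19 antigen presentation genes, 14 differed by less than 2-fold; PSMB9 (-3.08), an immunoproteasome subunit, was lowest in C32.

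Genes of the undifferentiated, invasive melanoma state were lower in C32 in 10 of 17 cases at 2-fold or more and higher in 0, with a median of -2.01 (-1.29 floored). Smaller differences of this list hung on the probe set: TPM1, SMAD3 and FGF2, called higher, were lower with their most variable probe sets, and the matrix protein TNC, called lower at -0.63, was then at 4.23 and at 1.43 with the mean of its probe sets. AXL, the receptor kinase that marks this state, read 2.08, 2.0 and 2.0 in C32 and 12.17, 12.36 and 12.28 in A375M2, a difference of -10.24 (floored -8.27; SE 0.184, limma adjusted p = 3.22e-19). With GFP the 2 lines were at 4.25 and 4.98, a difference of -0.73. A375M2 with shRNAs against NFYA was also high in AXL, at 11.94, so the high level was not particular to the FHL2 shRNAs. Also lower in C32 were the adhesive glycoprotein THBS1 (-8.63), TGFBI (-8.45), a TGF-beta-induced matrix protein, the WNT inhibitor DKK1 (-5.90) and WNT5A (-4.64), a ligand of noncanonical WNT signalling. EGFR, a growth factor receptor, was low in both lines and differed by -2.01 (floored -0.28). JUN (0.11) and NRG1 (-0.04) were not called.

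Ligands and receptors of growth signalling followed the same direction in 12 of 21 genes lower and 1 higher at 2-fold or more. The EGFR ligand TGFA (-8.01, and -7.30 with GFP) and the ephrin receptors EPHA4 (-6.07), EPHA2 (-5.08) and EPHA3 (-4.19) were lower in C32. HGF, the ligand of MET, was at 2.24 in every array of both shRNA groups, a difference of 0.00, beside -10.46 with GFP, and MET itself was lower in C32 by -1.41. HGF was at 2.24 in A375M2 with shRNAs against NFYA too. The MAPK output list had 13 of 17 genes under 2-fold, and MYC stood out, higher in C32 by 3.43.

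INHBA, the activin A subunit, had the largest unfloored difference of all genes tested: 2.10, 2.15 and 2.10 in C32 shFHL2 and 15.11, 15.08 and 15.09 in A375M2 shFHL2, or -12.98 (floored -11.09; SE 0.0955, limma adjusted p = 1.91e-24), beside -12.21 with GFP. C32 was near the lowest values and A375M2 near the highest with either vector. Of 18 genes of TGF-beta, BMP and WNT signalling, 10 were at least 2-fold lower and 2 higher in C32, among them ID1 (-6.35), a BMP-induced inhibitor of transcription, the activin antagonist FST (-4.80) and the WNT antagonist DKK3 (-6.65). TGFB2 was higher (2.76). TFPI2, an inhibitor of matrix proteases, was lower by -11.76, the IGF carrier IGFBP3 by -10.54 (and -1.89 with GFP), and TAC1, the tachykinin precursor, by -11.34.

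Matrix genes differed in both directions, with collagen chains at each end. Of 23 interstitial matrix genes, 12 were at least 2-fold lower and 6 higher in C32, with a median of -1.13 (10, 7 and -0.67 after quantile normalization). COL1A2, a chain of collagen I, read 12.45, 12.45 and 12.48 in C32 and 2.43, 2.44 and 2.46 in A375M2, a difference of 10.02 (floored 8.46; SE 0.0835, limma adjusted p = 9.11e-24). COL6A3, a chain of collagen VI, ran opposite, at 2.20 in each C32 array and at 11.30, 11.30 and 11.27 in A375M2, a difference of -9.08 (floored -7.29) where GFP gave -0.01. The partner chain of collagen I, COL1A1, was not called (-0.25).

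THBS2 (3.86), an angiogenesis inhibitor, and fibronectin, FN1 (2.57), were higher in C32. SERPINH1, the collagen chaperone, was higher by 1.21 with the shRNAs and by 10.30 with GFP. Of 11 basement membrane genes, 7 were at least 2-fold lower and 2 higher in C32: COL4A1 (-6.52) and COL4A2 (-5.03), the main collagen IV chains, and NID1 (-8.58), which links collagen IV to laminin, were lower, and the laminin chain LAMA1 (6.65, floored 5.49) was higher. Of 23 proteases and inhibitors, 12 were lower and 4 higher, with MMP2 (-6.85) and MMP1 (-4.28) lower and MMP8 (6.28), MMP14 (2.72) and the inhibitor TIMP2 (3.02) higher.

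**Figure D3:**
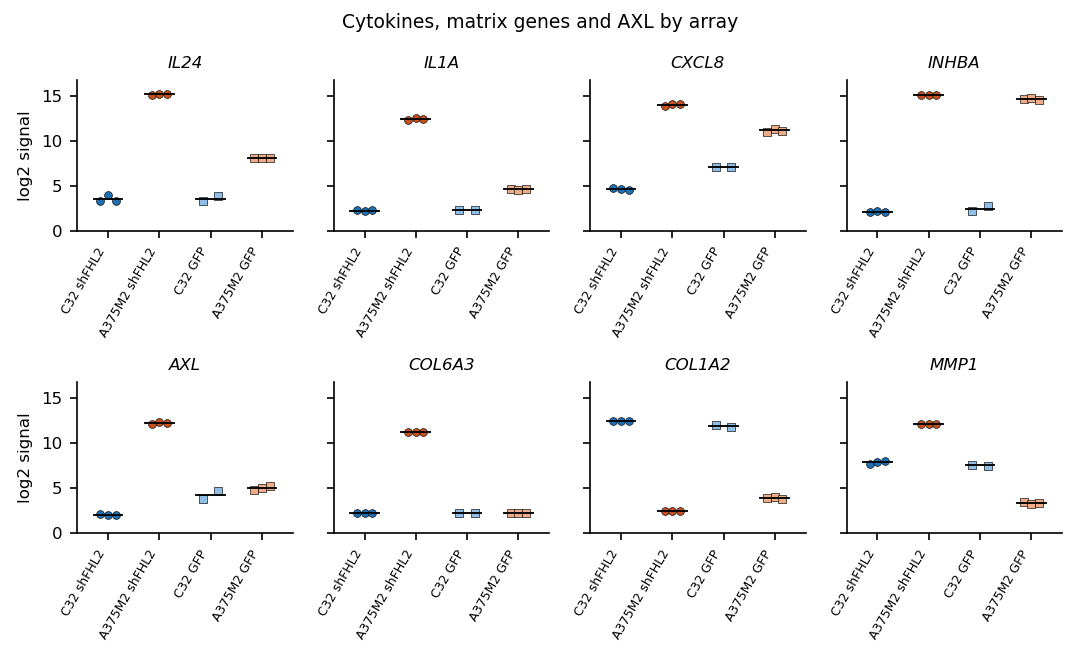
Log2 signal of cytokine, matrix and receptor genes in each array of the 4 groups (points) with the group mean (bar); C32 GFP has 2 arrays. INHBA and COL1A2 separate the lines with either vector, whereas AXL and COL6A3 are high in A375M2 shFHL2 and low in the other 3 groups shown, and MMP1 is lowest in A375M2 GFP. A375M2 with shRNAs against NFYA is not shown.

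Adhesion and LIM-domain genes, the families closest to FHL2, had no common direction. Of 12 measured LIM and FHL genes, 4 were at least 2-fold higher and 5 lower in C32, beside 21% and 26.1% of all genes. The lower genes include FHL2 itself, the target of the shRNAs (-1.34, and -0.13 with GFP). The lower count was 4 when floored and 3 after quantile normalization. PDLIM1, a LIM protein of stress fibres, read 2.26, 2.48 and 2.68 in C32 and 10.67, 10.73 and 10.68 in A375M2 (-8.22, floored -6.69). TGFB1I1 (-2.71), a focal adhesion LIM protein, PDLIM7 (-2.02, floored -1.30) and FHL3 (-1.73, floored -0.57), the relative of FHL2, were lower, and CSRP2 (2.82), CSRP1 (1.07), PDLIM5 (1.64) and the focal adhesion protein ZYX (2.39) were higher in C32. FHL3 was thus under 2-fold when floored.

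LDB3 was at 1.70 in both groups. LMO4 (-0.55) and LPP (0.48) took the opposite sign with other rules for their probe sets, LMO4 at 1.9 with the most variable one, and have no settled direction. Of 22 integrin and focal adhesion genes, 7 were lower and 2 higher at 2-fold or more: the kindlin FERMT1 (-8.36) and the integrin chains ITGA5 (-4.09), ITGA1 (-2.58) and ITGA2 (-2.57) lower, ITGA10 (5.14) and ITGB5 (1.48) higher. ITGB1, the chain shared by most of these receptors, differed by -0.51. Of 16 measured genes of a YAP and TEAD pathway list, which holds TEAD1 and TEAD4 beside target genes, 9 were lower and 1 higher. NT5E, an ecto-enzyme that makes adenosine, was lower by -10.23. Among cadherin-type adhesion genes, 5 of 15 were higher and 5 lower, with PCDH9 (4.76) and PCDH7 (4.32) above and CDH12 (-8.39) and CNTN4 (-4.18) below. Over all genes 21% were higher and 26.1% lower at 2-fold or more. Beside these shares few integrin and focal adhesion genes were higher (2 of 22), and the cadherin-type counts were equal each way. Whether these lists differ from all genes was not tested.

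Cancer-testis antigens, germline genes that tumours can switch on, were the list with the lowest median, -6.51: 12 of 13 were at least 2-fold lower in C32. MAGEA4 read 2.32, 2.41 and 2.28 against 14.07, 14.03 and 14.05, a difference of -11.71 (floored -10.05; limma adjusted p = 3.54e-23) beside -11.55 with GFP, and for it the change was not called (limma adjusted p = 0.38). MAGEC2 (-10.22), CTAG2 (-9.78) and SAGE1 (-7.77) were lower too, and PRAME was slightly higher (0.83). MAGEA and GAGE genes have near-identical relatives, so their separate values are uncertain.

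**Figure D4:**
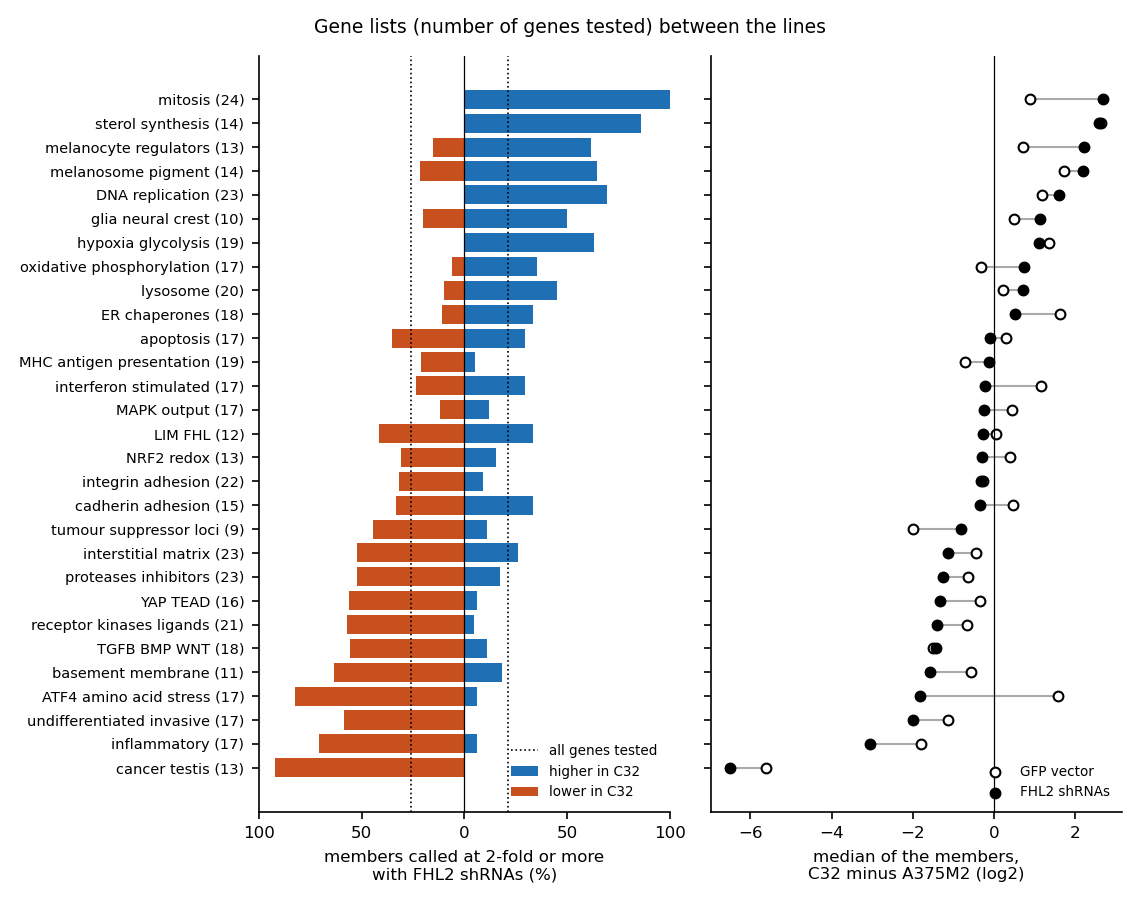
Left, share of each list's tested genes called at 2-fold or more with the FHL2 shRNAs, higher in C32 to the right and lower to the left, with dotted lines at the shares over all genes (21% and 26.1%). Right, median log2 difference of each list with the FHL2 shRNAs (filled) and with GFP (open); mitosis is at 2.69 and 0.89, the ATF4 list at -1.83 and 1.59 and cancer-testis genes at -6.51 and -5.62.

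The genes of cell division were higher in C32 throughout. All 24 measured mitosis genes were at least 2-fold higher in C32 shFHL2, with a median of 2.69, against 10 of 24 and 0.89 with GFP; the change was called at 2-fold or more, upward, for 21. NUSAP1, which bundles spindle microtubules, read 13.28, 13.28 and 13.32 in C32 and 9.58, 9.61 and 9.61 in A375M2, a difference of 3.69 (SE 0.042, limma adjusted p = 5.55e-22), or 12.9-fold. With GFP it was 1.17. FOXM1 (4.35), the transcription factor of this gene set, CENPE (3.54) and KIF20A (3.45), kinesins of the spindle, and the survivin gene BIRC5 (3.38) gave the larger differences, and MAD2L1 (1.92), a spindle checkpoint protein, the smallest. Of 23 DNA replication genes, 16 were at least 2-fold higher and 0 lower (1, MCM2 at -0.38, was called lower below 2-fold), among them the cyclin CCNE2 (3.11), TYMS (2.72) and the helicase subunit MCM7 (2.65). With GFP 14 were already at least 2-fold higher and 0 lower (median 1.18, against 1.61 with the shRNAs). The change was called at 2-fold or more upward for 4 and downward for 4.

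The NUSAP1 window is shown with CCAAT, the NF-Y element (ATTGG on the other strand), and TTTGAA, an element of late cell-cycle promoters, in capitals; these motifs and that of the ATF4 list were chosen after the values had been seen.

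NUSAP1, chr15:41332631-41332930, plus strand: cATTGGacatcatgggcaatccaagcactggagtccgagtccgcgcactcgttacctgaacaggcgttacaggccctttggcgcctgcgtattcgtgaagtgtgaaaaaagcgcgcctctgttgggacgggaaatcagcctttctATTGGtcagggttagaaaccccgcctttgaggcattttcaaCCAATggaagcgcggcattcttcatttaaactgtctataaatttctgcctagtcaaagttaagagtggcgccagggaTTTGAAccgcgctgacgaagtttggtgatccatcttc

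CCAAT was present in 16 of the 19 mitosis windows (84.2%), against 34.6% of all windows, and TTTGAA in 12 of 19 (63.2%), against 15.2%, both strands counted. A match is no evidence of binding, and the windows of KIF2C (2.08) and CENPE (3.54), also higher in C32, held neither motif.

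Genes of the ATF4 amino acid response, which cells raise when amino acids are short or the endoplasmic reticulum is stressed, differed in opposite directions with the 2 vectors. Of 17 genes, 14 were at least 2-fold lower and 1 higher in C32 with the shRNAs (median -1.83), whereas with GFP 10 were at least 2-fold higher and 0 lower (median 1.59; 13 were called higher and 3 lower at any size). The change was called at 2-fold or more, downward, for all 17. ASNS, asparagine synthetase, read 9.51, 9.45 and 9.41 in C32 shFHL2 and 14.10, 14.13 and 14.14 in A375M2 shFHL2, a difference of -4.67 (SE 0.036, limma adjusted p = 3.55e-24), and 1.86 with GFP. CHAC1 (-4.51), a glutathione-degrading enzyme, the pseudokinase TRIB3 (-3.36), the hormone STC2 (-2.96), the cystine carrier SLC7A11 (-2.69, and 2.66 with GFP) and ATF4 itself (-1.73, and 0.66 with GFP) were lower in C32. DDIT4, an inhibitor of mTOR signalling, was higher (1.20) and VLDLR was not called (-0.10).

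ASNS and ATF3 carry TGATGNAA, the core of the element that ATF4 and its partners bind, in capitals.

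ASNS, chr7:97872359-97872658, minus strand: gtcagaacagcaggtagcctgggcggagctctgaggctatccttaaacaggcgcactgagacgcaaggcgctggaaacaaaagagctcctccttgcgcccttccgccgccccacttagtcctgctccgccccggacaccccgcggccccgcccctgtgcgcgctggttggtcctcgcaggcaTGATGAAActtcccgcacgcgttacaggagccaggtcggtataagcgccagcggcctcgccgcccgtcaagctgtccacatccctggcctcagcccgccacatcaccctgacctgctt

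ATF3, chr1:212565157-212565456, plus strand: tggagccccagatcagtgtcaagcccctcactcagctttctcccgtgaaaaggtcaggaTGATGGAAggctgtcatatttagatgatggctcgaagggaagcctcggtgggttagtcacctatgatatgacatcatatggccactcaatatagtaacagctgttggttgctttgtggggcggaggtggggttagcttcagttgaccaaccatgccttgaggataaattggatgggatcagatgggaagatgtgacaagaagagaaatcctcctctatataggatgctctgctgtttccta

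The motif was present in 4 of 14 windows of the list (28.6%), against 3.62% of all windows, both strands counted. Here too a match is no evidence of binding: TRIB3 (-3.36) and STC2 (-2.96), also lower in C32, lacked it in their windows.

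Chaperones of the endoplasmic reticulum were less separated with the shRNAs, 6 of 18 at least 2-fold higher and 2 lower (median 0.52), than with GFP, 13 and 0 (median 1.63), and the change was called downward at 2-fold or more for 10. CRELD2 (2.39) and PDIA4 (2.10) were higher in C32 and the stress-response factor XBP1 (-1.47) lower.

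Sterol synthesis genes were higher in C32 with either vector: 12 of 14 at 2-fold or more with the shRNAs (median 2.60) and 13 with GFP (median 2.65), and 0 were called lower with either. IDI1 (2.01), an isomerase of the pathway, took the opposite sign (-2.95) with its most variable probe set. SQLE, squalene epoxidase, read 13.64, 13.72 and 13.67 in C32 and 9.41, 9.33 and 9.38 in A375M2, a difference of 4.30 (SE 0.0398, limma adjusted p = 3.34e-23), or 19.7-fold, beside 3.10 with GFP. INSIG1 (4.39), which retains the sterol sensor in the endoplasmic reticulum, and the synthesis enzymes HMGCS1 (4.22) and DHCR7 (4.21) differed by similar sizes. Hypoxia and glycolysis genes were at least 2-fold higher in 12 of 19 and lower in 0 (3 were called lower below 2-fold), with PDK1 (3.37), which limits pyruvate entry into mitochondria, and NDRG1 (2.58) the largest. With GFP 12 were at least 2-fold higher and 1 lower (median 1.37, against 1.11 with the shRNAs). HK2 (1.57), a hexokinase, was -1.65 with its most variable probe set. Respiratory chain genes had a median of 0.75 (6 of 17 at least 2-fold higher, 1 lower) beside -0.31 with GFP, the electron carrier cytochrome c, CYCS, was higher by 3.81, and PPARGC1A, a driver of mitochondrial biogenesis, was higher by 4.18.

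**Figure D5:**
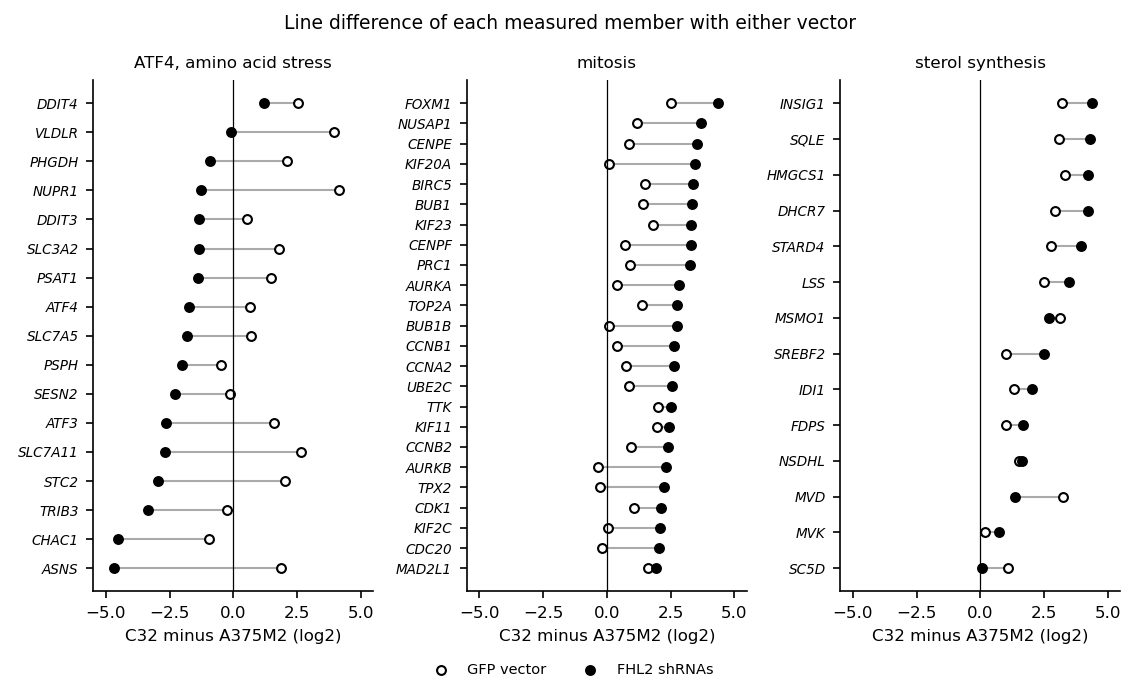
Difference C32 minus A375M2 (log2) of every measured gene of 3 lists, with the FHL2 shRNAs (filled) and with GFP (open). All 17 ATF4 genes lie further left with the shRNAs (ASNS at -4.67 and 1.86), all 24 mitosis genes lie right of 0 with the shRNAs, and sterol genes lie right of 0 with both.

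Beside the lists, some line differences were large with both vectors. Higher in C32 with either vector were ALDH1A1 (10.80 with the shRNAs, 8.89 with GFP), a retinaldehyde dehydrogenase, the homeobox factor LHX2 (9.88 and 9.54), the RNA-binding protein CELF2 (9.66 and 9.23), RNASE1 (9.15 and 10.52) and the tetraspanin TSPAN7 (8.98 and 9.18; change not called, limma adjusted p = 0.49). Lower in C32 with either vector were the factor TFAP2B (-10.21 and -10.59), the decoy receptor IL13RA2 (-9.17 and -8.65), LINC01419 (-10.27 and -10.83) and, among genes above log2 7 in both lines with the shRNAs, SYTL5 (-6.17 and -7.93) and MAGEA6 (-5.67 and -6.27). A2M, a broad protease inhibitor, was the largest difference upward among genes above log2 7 in both, at 14.37 against 8.24 (6.13), and GDF15, a stress cytokine, followed at 15.72 against 10.56 (5.17, and 1.39 with GFP).

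Other differences were opened with the shRNAs. PPP1R3C, a glycogen-targeting subunit, was at 10.60 in C32 shFHL2 and 2.46 in A375M2 shFHL2, a difference of 8.13 where GFP gave -0.03. ARG2, mitochondrial arginase, was at 5.08 and 12.82, a difference of -7.74 where GFP gave -0.03, and LCN2 (-8.94), an iron-carrier-binding protein, CHMP4C (-8.91) and TRHDE (-8.53) were likewise near 0 with GFP. The cation channel TRPM8 (5.07) and ID4 (5.28) were opened upward. For PPP1R3C the shRNA arm minus the GFP arm was -8.78 in A375M2 and -0.62 in C32, and for TRPM8 it was -5.00 and -0.06.

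Some genes took opposite signs with the 2 vectors. MMP1, the interstitial collagenase, was lower in C32 shFHL2 (-4.28) and higher in C32 GFP (4.24), and the contactin CNTN4 (-4.18 and 6.29) and the epithelial factor KLF5 (-4.83 and 3.84) did the same. COL8A1 (4.52 and -3.75), the mechanosensitive channel PIEZO2 (4.56 and -3.52) and the calcification inhibitor MGP (3.06 and -3.60) took the reverse order. Differences closed with the shRNAs included UTS2, DLK1 and CUX2, each at the lowest values in both shRNA groups (0.00) and between -6.64 and -6.97 with GFP, and the troponin TNNT1 (0.13, not called, and 5.25 with GFP).

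Position on the chromosome, which played no part in choosing the genes, also grouped some of them. In the RefSeq gene order (GRCh38.p14), 135 runs of at least 4 measured neighbours were all at least 2-fold different in one direction, 57 higher and 78 lower in C32, holding 665 genes; with 47.1% of genes past that size, runs occur, and how many would be found by position alone was not tested. The runs named here were picked after their values were seen. The largest median was that of NUTM2A-AS1, MINPP1, PAPSS2 and ATAD1 (-10.81), neighbours on chromosome 10. PAPSS2, which makes the sulfate donor of the cell, read 2.21 in each C32 shFHL2 array and 13.43, 13.44 and 13.43 in A375M2 (-11.23, floored -9.43), and was at 2.21 and 12.98 with GFP. MINPP1 (-10.75), an inositol phosphate phosphatase, and ATAD1 (-10.86), a membrane protein extractor of mitochondria, had the same pattern, at the lowest values in C32 with both vectors and high in A375M2 with both.

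Runs of related genes were CXCL8, CXCL1, CXCL3 and CXCL2 (median -7.02) and KRT80, KRT7, KRT8, KRT18 and EIF4B (-4.16), and the longest, of 11 genes each, were a zinc finger run beginning at ZNF738 (median -3.24, with 8 of its genes under log2 4 in C32 and 3 also at least 2-fold lower with GFP) and the run from EBLN3P to SHB (median -2.05, 8 also lower with GFP). In C32, 3 genes of the CXCL8 run and 4 of the KRT80 run were under log2 4. Zinc finger genes of such runs have similar sequences, so their separate values are uncertain. In the tumour suppressor list, CDKN2B, an inhibitor of the G1 kinases, read 7.85, 7.71 and 7.90 in C32 and 2.07 in each A375M2 array (5.75, floored 3.82; limma adjusted p = 3.34e-20), and 6.16 with GFP. MTAP, an enzyme of methionine salvage from the same locus, was lower in C32 (-3.50). CDKN2A was low in both lines, at 3.85 and 4.65, and its difference of -0.80 was 0.28 after quantile normalization. CDKN1A (-0.70) and CDKN1B (-0.47) differed by less than 2-fold, and RB1 was not called (-0.17).

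Markers of other cell types gave no common direction. Of 18 listed keratinocyte and epithelial markers 8 were tested, the others, KRT5 and EPCAM among them, were not analysed here, and 3 were at least 2-fold higher and 4 lower in C32; the mean level over these markers was 5.45 to 5.49 in the C32 arrays and 7.52 to 7.61 in the A375M2 arrays, with KRT18 at 2.17 in each C32 array and at 12.76 in A375M2, and ESRP1 higher in C32 (5.68). Of 5 tested fibroblast markers, COL1A2 and FAP (6.75) were higher and LUM (-4.97) and PDGFRA (-3.36) lower, with mean levels of 7.12 to 7.24 and 5.51 to 5.56. The leukocyte marker PTPRC was at 7.80 in C32 and at 2.16 in every A375M2 array, LYZ was lower in C32 (-3.76), and the endothelial marker KDR stood at 7.83 and 7.58. The part of other cell types in these values was not tested.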

How the data were processed

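Gene expression was measured on Affymetrix 3′ arrays in 18 samples. The deposited values are log2 signals made by the authors with GCRMA, per the submitters' processing notes; no version is given in the sources used here, and the values were used as deposited (0 missing, 0 unmatched columns). GCRMA places weak probe sets at shared low values, so differences with a line under log2 4 depend on that floor and were also computed with values under 4 set to 4.

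Of 23416 probe sets, 58 were controls, 2099 had no gene symbol, 995 had several and 20264 had 1, of which 20254 were named by Entrez gene ID. A filter asking for log2 4 in 3 or more of the 18 arrays left out 758 of these, and of several probe sets for a gene the one with the highest mean was used (10940 genes). The array carries no read depth, and the number of arrays limits the precision (median SE of a difference 0.0711).

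A linear model of group means (limma 3.58.1, R 4.3.3, eBayes with trend) was fitted to 17 arrays, C32 GFP replicate 3 left out, with 11 residual degrees of freedom, and p-values were adjusted by Benjamini-Hochberg within each comparison; the scripts were tested on simulated data. Promoter windows are RefSeq sequences on GRCh38.p14 (35116 windows), read with Python 3.11.15. The gene lists, the comparison and its genes were chosen with earlier results of these data known. FHL2, NFYA and PMEL, all LIM, melanocyte, pigment and tumour suppressor list members and up to 4 members of each other list with the smallest adjusted p were named by rule; other list members were named after their values were seen. Outside the lists, named genes are the 12 with the largest floored difference in each direction, 6 in each direction among genes at log2 7 or more in both lines, and the 8 kept and 5 turned, opened or closed differences of the largest size each way; the neighbouring runs were picked after seeing their values. The alternatives tried were other scalings, filters, probe set rules, the floor, fits on fewer arrays, a replicate block, a test against 2-fold and leaving out each array.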

Additional observations from a re-analysis of the deposited data

Results flagged for a closer look

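The line difference changed between the GFP vector and the FHL2 shRNAs for 8772 of 10940 genes (limma interaction, Benjamini-Hochberg adjusted), and the genes named for a turned, opened or closed difference are given here with the size of that change, shRNA difference minus GFP difference on the log2 scale. Among the turned differences it was 8.27 for COL8A1, 8.41 for ARMCX2, 8.78 for SOX9, 8.08 for PIEZO2 and 6.65 for MGP, and -10.47 for CNTN4, -8.67 for KLF5, -8.52 for MMP1, -6.65 for the calcium-binding protein S100A2 and -5.35 for SLC7A11.

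Among the opened differences it was 8.16 for PPP1R3C, 4.79 for ID4, 4.94 for TRPM8, 5.66 for MTLN and 4.24 for FAM210A, and -7.71 for ARG2, -8.31 for TRHDE, -9.08 for COL6A3, -8.94 for LCN2 and -8.86 for CHMP4C. Among the closed differences it was -5.87 for PTGS2, -5.12 for TNNT1, -5.96 for the kinase NEK9, -5.59 for LDB3 and -5.96 for N4BP2L1, and 10.46 for HGF, 5.44 for SOD3, 6.97 for UTS2, 6.83 for DLK1 and 6.64 for CUX2. These genes were chosen for their change, so the values are a description.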

How the results depend on the processing

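The counts of genes called and of genes called at 2-fold or more, for the line difference with the shRNAs, that with GFP and the change between them, stayed within 1.5 times of the reported counts under every alternative except the test against a 2-fold change. That test called 4473 genes with the shRNAs, 3894 with GFP and 2575 for the change. Leaving out each array in turn gave 9692 to 9740 called and 5137 to 5160 at 2-fold or more with the shRNAs, 9077 to 9298 and 4696 to 4752 with GFP, and 8532 to 8709 and 3698 to 3776 for the change. Replicate numbers did not pair the lines (deviations of same-numbered shRNA arrays from their group means correlated at -0.025, -0.035 and 0.013), and with the number as a replicate block 9822 genes were called with the shRNAs, 9318 with GFP and 8662 for the change, and with C32 GFP replicate 3 included 9918, 9575 and 8988. The share of genes at 2-fold or more that were higher in C32 shFHL2 was 44.6%, 48.2% with arrays centred and 52.4% after quantile normalization. Of single-gene values under the alternatives, 11414 kept their side of the threshold, 248 lost the call, 50 gained it and 36 that had been called took the opposite sign. A change of sign was counted only for differences called with the main settings.

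The cause of the changed signs was not tested. After quantile normalization the differences with the shRNAs were N4BP2L1 0.084, SOD3 0.59, CDKN2A 0.28, IRF7 0.23, USP18 0.38, PCDH17 0.013, TGFB1 0.15, TFEB 0.57 and KRT14 0.43, and HLA-DPA1 was 0.0025 with arrays centred. With the most variable probe set they were LMO4 1.9, TPM1 -0.55, TNC 4.23, FGF2 -1.55, SMAD3 -1.53, SPRED1 1.20, CADM1 1.36, SPARC 0.79, P4HA2 0.32, AJUBA 0.73, HK2 -1.65, IDI1 -2.95, PDIA6 0.39 and TXN -0.17. With the mean of a gene's probe sets they were LPP -0.16, LMO4 0.50, TNC 1.43, FGF2 -0.43, SMAD3 -0.57, CADM1 0.21, HK2 -0.55 and GCLC 0.093, and the change between vectors was -0.30 for TYR, -0.19 for LHX2 and 0.012 for ATAD1. The change for TYR was -0.51 with values under 4 set to 4. Differences under log2 4 in both lines cannot be ordered, and 3 arrays a group, with 2 for C32 GFP, limit the precision.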

Other observations

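Lysosomal genes, which share much of their regulation with melanosome genes, had 9 of 20 measured members at least 2-fold higher and 2 lower in C32 shFHL2 (median 0.72). Over all genes 21% were higher and 26.1% lower at that size. The protease CTSD (2.59) and the cholesterol carriers NPC1 (2.57) and NPC2 (1.61) were higher, and CTSH (-4.57) and the glycogen-degrading enzyme GAA (-3.13) were lower. Of 17 apoptosis genes, 5 were at least 2-fold higher and 6 lower: the survival gene BCL2 (3.88, beside 0.55 with GFP), its antagonist BCL2L11 (2.12) and CASP1 (3.21) were higher in C32, and the death receptor TNFRSF10A (-5.84), FAS (-1.83) and the survival gene MCL1 (-2.14) were lower. The median of that list was -0.09, and 0.36 after quantile normalization, so it has no direction.

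Among genes of the NRF2 redox response, 2 of 13 were at least 2-fold higher and 4 lower in C32, not far from the 21% and 26.1% over all genes. MGST1, a glutathione transferase, was lower by -10.05 (-4.92 with GFP), and the retinaldehyde dehydrogenases ran in opposite directions, ALDH1A1 higher (10.80) and ALDH1A3 lower (-3.74).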
